A study of Arabidopsis thaliana with 6 samples.

Results

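CIPK14 (AT5G01820), CIPK17 (AT1G48260) and CIPK25 (AT5G25110) encode 3 CBL-interacting protein kinases of Arabidopsis thaliana, and all 3 had more RNA in a mutant in both MRG1 and MRG2 than in the Col-0 wild type. They were chosen from the authors' list of genes higher in the mutant, and are the 3 CIPK genes among the 531 on it (2.31% of the genes tested) and the 552 listed in both directions. Values of the comparison between the genotypes therefore describe these genes and test nothing. The groups were wild-type Col-0 (ecotype Columbia-0) and mrg1 mrg2 plants in the same ecotype, with no other treatment; the labels do not name the mutant alleles. RNA came from aerial parts (leaves and stem) of 12-day-old seedlings raised on soil at 22 °C under a 16 h day and an 8 h night, and harvested 8 h after lights on. Each genotype had 3 libraries, from 3 independent experiments per the labels, which give at least 40000000 single-end reads of 50 bp per library.

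CBL proteins are calcium sensors that resemble the regulatory subunit of calcineurin. When a CBL binds calcium it docks on a short stretch of its partner kinase, the NAF motif (named for the residues asparagine, alanine and phenylalanine), and releases the kinase domain from inhibition by the rest of the protein. The complexes sit at the plasma membrane or the vacuole membrane and are best known for phosphorylating channels and transporters of potassium, sodium and nitrate and for tuning responses to salt, drought and abscisic acid. MRG1 and MRG2 are chromodomain proteins that bind histone H3 methylated at lysine 36.

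The stretch that defines the family was read from the RefSeq TAIR10.1 genome for each kinase, as 63 coding bases on the minus strand with the codons of the NAF motif in capitals. It lay at chr5:313777-313839 in CIPK14, chr1:17814842-17814904 in CIPK17 and chr5:8658139-8658201 in CIPK25, and encoded the motif at residues 311 to 313, 307 to 309 and 342 to 344.
CIPK14: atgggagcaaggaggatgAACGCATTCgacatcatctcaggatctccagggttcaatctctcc
CIPK17: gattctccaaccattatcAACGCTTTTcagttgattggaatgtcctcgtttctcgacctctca
CIPK25: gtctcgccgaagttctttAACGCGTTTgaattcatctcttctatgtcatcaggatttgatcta
The 3 genes encode the same motif, and the bases around it differ widely. Without gaps, CIPK14 and CIPK17 shared 29 of the 63 bases, CIPK17 and CIPK25 shared 25, and CIPK14 and CIPK25 shared 24. The letters NAF occurred in the translated proteins of 24 of the 26 CIPK genes.

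CIPK14 was the most abundant of the 3 kinases and had the smallest relative increase. This kinase phosphorylates ATL31, a ubiquitin ligase of the response to the balance of carbon and nitrogen. CIPK14 gave 1151, 1518 and 1086 raw counts in Col-0 replicates 1, 2 and 3 and 1818, 2639 and 2012 in mrg1 mrg2 replicates 1, 2 and 3. Every mutant library was above every Col-0 library, as for 99.2% of the higher genes, and replicate 2 was the highest within both genotypes. Divided by library size factors, these counts averaged 1256 ± 268 in the wild type and 2142 ± 286 in the mutant (SD, 3 libraries each), 1.71 times as high. The lowest mutant library was 1.22 times the highest Col-0 library. CIPK14 had a log2 fold change of 0.77 and an adjusted p of 0.00467 in the authors' deposited table. Within replicate numbers, the mutant was 1.68-, 1.57- and 1.93-fold above Col-0.

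CIPK17 lay between the other kinases in level and in relative increase. It is the only 1 of the 3 with introns in its coding sequence. CIPK17 gave 241, 235 and 159 raw counts in Col-0 replicates 1 to 3 and 422, 575 and 293 in mrg1 mrg2 replicates 1 to 3. The groups did not overlap, and replicate 3 was the lowest within both genotypes. Normalized counts of CIPK17 averaged 212 ± 47.9 in the wild type and 426 ± 118 in the mutant (SD, 3 libraries each), 2.01 times as high, with the lowest mutant library at 1.24 times the highest Col-0 library. CIPK17 had a log2 fold change of 1.01 and an adjusted p of 0.0122 in the authors' deposited table. The ratios within replicate numbers were 1.86-, 2.21- and 1.92-fold.

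CIPK25 had the least RNA and the largest relative increase, with mutant libraries that differed most from each other. CIPK25 is known from roots, where it takes part in the growth of the root meristem; roots were not in the sampled tissue per the labels. CIPK25 gave 38, 39 and 36 raw counts in Col-0 replicates 1 to 3 and 57, 99 and 122 in mrg1 mrg2 replicates 1 to 3. Col-0 libraries were almost equal, whereas the highest mutant library had more than double the count of the lowest. Normalized counts averaged 37.7 ± 2.34 in the wild type and 92.3 ± 32.7 in the mutant (SD, 3 libraries each), 2.45 times as high. CIPK25 had a log2 fold change of 1.29 and an adjusted p of 0.00989 in the authors' deposited table. The mutant was 1.60-, 2.3- and 3.52-fold above Col-0 in replicates 1, 2 and 3, so the size of the increase in CIPK25 varied more between experiments than in CIPK14 or CIPK17.

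**Figure D1:**
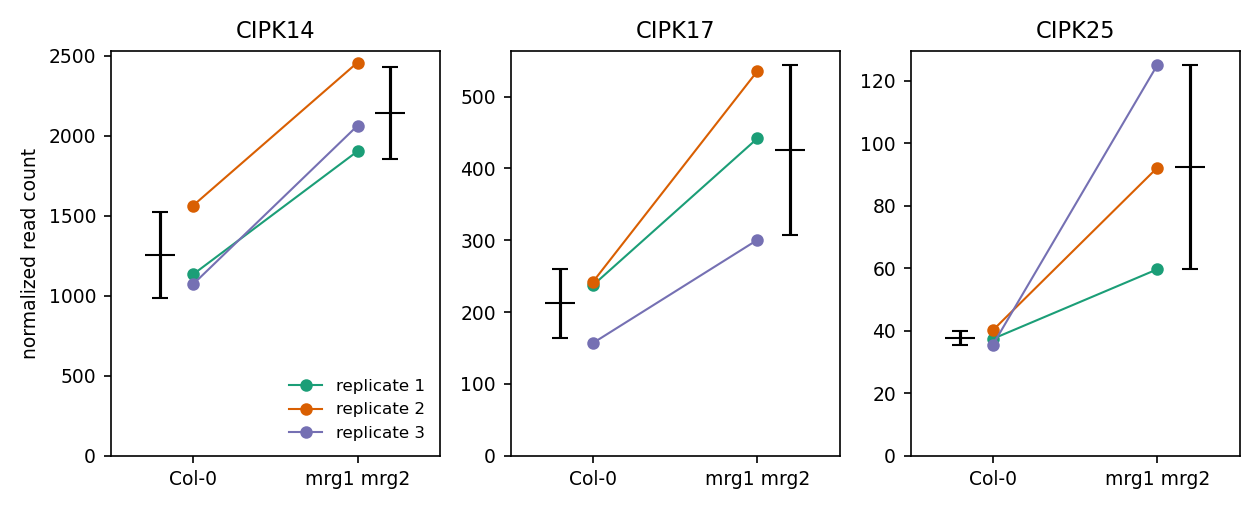
Normalized read counts of CIPK14, CIPK17 and CIPK25 in 3 Col-0 and 3 mrg1 mrg2 libraries, with lines joining libraries of the same replicate number and black marks giving the mean and SD of each genotype (n = 3). All lines rise, CIPK14 from 1256 to 2142 on average, CIPK17 from 212 to 426 and CIPK25 from 37.7 to 92.3, and the mutant libraries of CIPK25 are spread widest around their mean.

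The spread between libraries was set against counting error for each kinase. In Col-0 the coefficient of variation of CIPK14 was 21.3% where counting error alone gives 2.83%, and that of CIPK17 was 22.6% against 6.87%. For CIPK25 it was 6.21% in Col-0, below the 16.3% that counting error gives, and 35.4% in the mutant against 10.4%. The Col-0 libraries of CIPK25 thus lay closer together than counting error alone gives. An exact Poisson 95% interval, which covers counting error only, ran from 26.9 to 52.2 for the 38 counts in Col-0 replicate 1 and from 43.2 to 73.9 for the 57 counts in mutant replicate 1, so these intervals overlapped. The intervals of the 99 and 122 counts, 80.5 to 121 and 101 to 146, lay above that of each Col-0 library, of which the highest bound was 53.3.

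Against other genes on the same list, CIPK25 had an uneven level in the mutant. Among 419 higher genes with a mean of at least 50 counts over the 6 libraries, the median SD of log2 normalized counts was 0.24 in Col-0 and 0.19 in mrg1 mrg2. CIPK25 reached this mean only through its mutant libraries, as it averaged 37.7 in Col-0. The SDs include counting error, which was not removed and is larger at low counts. The SD of CIPK25 was 0.09 in Col-0, with 10.5% of these genes below it, and 0.54 in the mutant, with 97.6% below it. CIPK17 had SDs of 0.35 and 0.42, with 72.3% and 92.4% of the genes below. CIPK14 had SDs of 0.29 and 0.19, with 64.2% and 50.4% below, and so lay near the middle of the list.

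Levels of different genes were compared per kilobase of the spliced transcript. CIPK14 had 567 ± 121 normalized counts per kilobase in Col-0, CIPK17 117 ± 26.3 and CIPK25 21.5 ± 1.34 (SD, n = 3 each). In mrg1 mrg2 the levels per kilobase were 967 ± 129, 234 ± 65.1 and 52.8 ± 18.7, in the same order. Neighbours in this order did not overlap in either genotype. The summed level of the 3 kinases per kilobase rose from 705 ± 140 to 1254 ± 177 (SD, n = 3 each), 1.78-fold, and CIPK14 made up 80.3 ± 2.78% of the sum in Col-0 and 77.2 ± 2.23% in mrg1 mrg2. Among 528 higher genes with an annotated transcript length, the Col-0 level per kilobase ranked 48 for CIPK14, 214 for CIPK17 and 399 for CIPK25, counted from the highest. These are whole aerial parts, in which more cells that express a kinase and more RNA per cell cannot be told apart.

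The changes of the 3 kinases lay within the bulk of the list. The median log2 fold change of the 531 higher genes was 1.08 in the authors' deposited table, and the median of the 3 kinases was 1.01. There CIPK25 ranked 172 by log2 fold change from the largest, CIPK17 306 and CIPK14 423. By adjusted p from the smallest, CIPK14 ranked 273, CIPK25 333 and CIPK17 352. The list ended at an adjusted p of 0.0497 and a 1.51-fold change in the authors' deposited table; genes outside these limits have no values here, so no kinase just outside them can be described. The lack of overlap between the genotypes in all 3 kinases is shared with nearly the whole list.

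**Figure D2:**
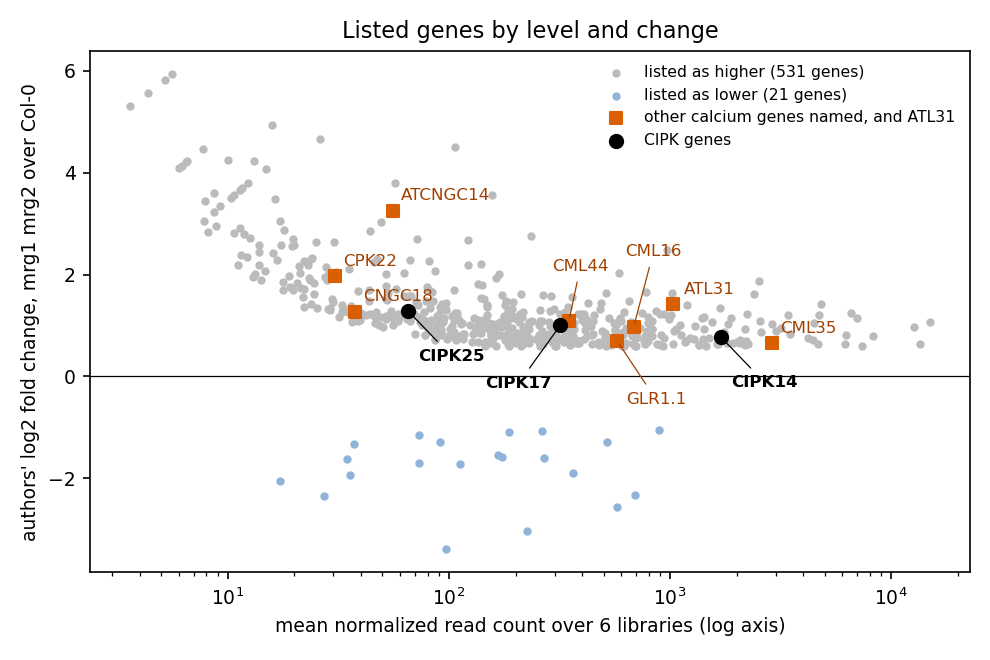
Log2 fold change of mrg1 mrg2 over Col-0 in the authors' deposited table against the mean normalized count over 6 libraries, on a log axis, for 531 higher (grey) and 21 lower (blue) genes, with CPK22, ATL31, the 3 calcium channel genes and the 3 calmodulin-like genes as orange squares. The 3 CIPK genes (black) lie within the cloud of higher genes, at 0.77, 1.01 and 1.29, the larger changes at the lower counts.

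The kinases were compared across libraries once the genotype means were removed. Deviations of log2(normalized count + 1) over the 6 libraries gave Pearson r = 0.56 between CIPK14 and CIPK17, 0.34 between CIPK14 and CIPK25 and -0.35 between CIPK17 and CIPK25. Spearman's rho for the same pairs was 0.60, 0.77 and 0.029. These values share libraries and size factors and describe 6 points each. CIPK14 and CIPK17 were both highest in replicate 2 of each genotype by normalized counts. For CIPK17 in Col-0 this rests on the size factors, with raw counts of 241 in replicate 1 and 235 in replicate 2. In the mutant, replicate 3 held the lowest CIPK17 value and the highest CIPK25 value, at -0.46 and 0.50 from the mean on the log2 scale.

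The listed genes most like each kinase in these deviations were found among 434 others with a mean of at least 50 counts. For CIPK25 the closest was WRKY70 (r = 0.998 over 6 libraries), a transcription factor gene of salicylic acid defence, with 4578, 4718 and 4239 normalized counts in Col-0 replicates 1 to 3 and 5686, 7982 and 10151 in mrg1 mrg2 replicates 1 to 3. WRKY70 thus had the same even Col-0 libraries and the same order of mutant libraries as CIPK25. The next for CIPK25 were AT3G60200 (r = 0.95) and AT4G03820 (r = 0.92). For CIPK17 they were AT4G13577 (r = 0.996), MDAR3 (r = 0.99), a monodehydroascorbate reductase gene that was lower in the mutant, and AT5G49525 (r = 0.98). For CIPK14 they were AT1G67330 (r = 0.96), the defensin gene PDF1.2B (r = 0.96), which was lower in the mutant, and AT2G30942 (r = 0.96). With so few libraries high values are common: 20 of the 434 genes reached r = 0.9 with CIPK14, 22 with CIPK17 and 9 with CIPK25.

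The rest of the CIPK family was not listed. Of 26 CIPK genes, 3 (11.5%) were listed as higher, 0 as lower and 23 were not listed, beside 2.31% higher and 0.0913% lower among the 22995 genes in the authors' test, a number inferred from its adjusted p-values. At an adjusted p of at most 0.01 the list held CIPK14 and CIPK25 (2 of 26), beside 1.45% of the genes tested. At a log2 fold change of at least 1 it held CIPK17 and CIPK25, beside 1.34%, and at a mean of at least 50 counts all 3, beside 1.82%. CIPK25 passed that mean only through its mutant libraries, with an average of 37.7 in Col-0. The kinases were chosen through these counts of listed genes, so nothing is read from them. Genes that were not listed have no counts here, and their levels are not known.

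The 3 kinases were not each other's nearest relatives. By global alignment of the translated RefSeq coding sequences, CIPK25 was closest to CIPK5, with 356 identical residues (80.0% of the shorter protein), and CIPK17 to CIPK1, with 338 (78.2%). CIPK1 acts with CBL1 and CBL9 in responses to abscisic acid and osmotic stress. CIPK14 had no such close relative: its nearest was CIPK11, an inhibitor of the plasma membrane proton pump AHA2, with 252 identical residues (57.9%). None of CIPK5, CIPK1 and CIPK11 was listed. Among themselves, CIPK14 and CIPK25 shared 48.9% of residues, CIPK17 and CIPK25 47.0% and CIPK14 and CIPK17 42.4%. The medians over the family were 48.4% for CIPK14, 45.9% for CIPK17 and 49.4% for CIPK25. CIPK14 and CIPK17 were thus among the more distant pairs. Of the 25 other proteins, counted from the closest, CIPK17 ranked 23 for CIPK14 and CIPK14 ranked 21 for CIPK17.

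**Figure D3:**
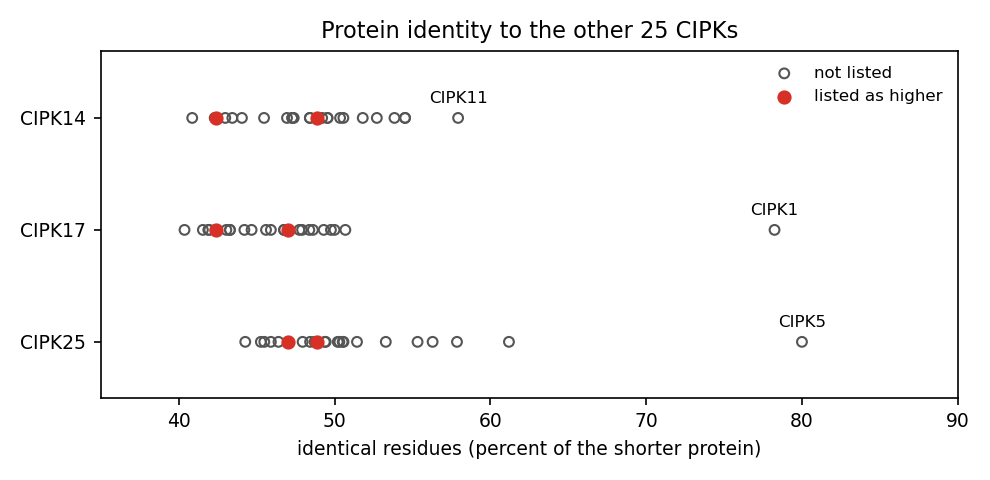
Identical residues, as a percent of the shorter protein, between CIPK14, CIPK17 or CIPK25 and each of the other 25 CIPK proteins, with listed genes in red and the closest relative named. The closest relatives, at 57.9%, 78.2% and 80.0%, are all open circles, and the listed genes lie between 42.4% and 48.9%.

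Reads of 50 bp could separate the kinases from their relatives at nearly all positions. No stretch of 50 bases from the 2216-base CIPK14, 1819-base CIPK17 or 1749-base CIPK25 transcript occurred elsewhere in the genome (0 of 2167, 0 of 1770 and 0 of 1700). Stretches of CIPK17 that cross an exon junction are not contiguous in the genome, so this search says little about them. With up to 2 mismatches, 8 of the 1770 stretches of CIPK17 (0.452%) matched another CIPK transcript, that of CIPK1, and 0 did so for CIPK14 and CIPK25.

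Gene structure split the 3 kinases into both known branches of the family. CIPK14 (chromosome 5, 313190 to 315405) and CIPK25 (chromosome 5, 8657604 to 8659352) have 1 coding exon, as do 16 of the 26 family genes. CIPK17 (chromosome 1, 17813886 to 17817441) has 11 coding exons and 5 annotated transcripts, which the deposited count per gene does not separate. All 3 lie on the minus strand. The proteins are 442, 432 and 488 residues long for CIPK14, CIPK17 and CIPK25. The untranslated stretch before the start codon was longest in CIPK14, at 654 bases, against 180 in CIPK17 and 146 in CIPK25.

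**Figure D4:**
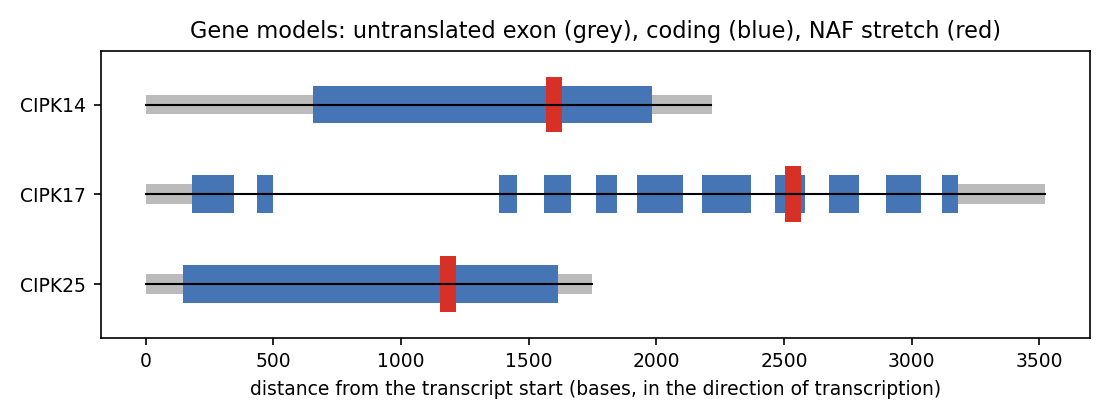
Exons of the CIPK14, CIPK17 and CIPK25 transcripts with the longest coding sequence, by distance in bases from the transcript start, with untranslated parts in grey, coding parts in blue and the NAF stretch in red. CIPK14 and CIPK25 have 1 coding block each and CIPK17 has 11, with the NAF stretch in the second part of each coding sequence.

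The 250 bases before each annotated gene start are shown because all 3 genes were listed as higher, with a motif match in capitals. They are from RefSeq TAIR10.1, written 5′ to 3′ along the minus strand, at chr5:315406-315655 for CIPK14, chr1:17817442-17817691 for CIPK17 and chr5:8659353-8659602 for CIPK25.
CIPK14: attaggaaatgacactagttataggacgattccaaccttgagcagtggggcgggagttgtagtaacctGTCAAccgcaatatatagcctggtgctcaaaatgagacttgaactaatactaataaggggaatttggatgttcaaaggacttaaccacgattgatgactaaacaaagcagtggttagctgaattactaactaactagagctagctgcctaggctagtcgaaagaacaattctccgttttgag
CIPK17: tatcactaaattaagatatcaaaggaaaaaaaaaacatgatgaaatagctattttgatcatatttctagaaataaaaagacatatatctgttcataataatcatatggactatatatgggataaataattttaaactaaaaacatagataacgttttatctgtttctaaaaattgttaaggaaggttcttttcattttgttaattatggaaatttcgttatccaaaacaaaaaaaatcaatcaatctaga
CIPK25: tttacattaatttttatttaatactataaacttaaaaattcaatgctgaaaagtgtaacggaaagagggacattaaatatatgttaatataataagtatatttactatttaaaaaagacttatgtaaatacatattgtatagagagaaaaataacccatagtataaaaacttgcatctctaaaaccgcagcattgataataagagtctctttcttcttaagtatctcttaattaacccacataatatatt
CIPK14 differed from the others in base composition, with 41.2% G and C against 21.6% in CIPK17 and 22.8% in CIPK25, where the median of 27443 nuclear protein-coding genes was 31.2%. The windows were searched on both strands for 6 motifs: ACGTG, the core of the abscisic acid response element; CACGTG, the G-box, which contains it; CCGAC, the core of the dehydration response element; TTGAC, the core of the W-box bound by WRKY factors; CGCG; and GCCGCC, the GCC box. TTGAC occurred once, in CIPK14 at 182 bases before the start, read on the other strand, and in 44.9% of all windows of this length. The other motifs had 0 matches in the 3 windows and occurred in 22.9%, 6.49%, 12.0%, 10.1% and 1.87% of all windows, in the order given.

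A gene beside CIPK25 was also listed as higher in the mutant, as were 2.31% of the genes tested. CYP71B11 (AT5G25120), a cytochrome P450 gene, is the next protein-coding gene upstream of CIPK25, on the opposite strand with a gap of 2617 bases. CYP71B11 gave 642, 611 and 791 raw counts in Col-0 replicates 1 to 3 and 853, 1119 and 1203 in mrg1 mrg2 replicates 1 to 3. These groups did not overlap, as for 99.2% of the higher genes. The authors' deposited table gives CYP71B11 a log2 fold change of 0.63 (adjusted p = 0.0124). The mutant libraries stood in the order of CIPK25, replicate 1 lowest and replicate 3 highest, whereas in Col-0 replicate 3 was highest for CYP71B11 and lowest for CIPK25. The Col-0 counts of CIPK25 lay closer together than counting error alone gives, so their order carries little weight. CIPK15, the neighbour of CIPK14 with a gap of 1092 bases and 50.4% identical residues, was not listed, nor were SAUR21 on the other side of CIPK14, NPSN12 and GCR1 around CIPK17 or AT5G25100 downstream of CIPK25. No annotated gene overlapped any of the 3 kinases, on either strand.

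Of 10 genes for CBL proteins, the calcium sensors that dock on these kinases, 0 were higher and 0 lower. Of 12 genes of the related SnRK1 and SnRK2 kinases 0 were listed in either direction. With 2.31% of the genes tested listed as higher and 0.0913% as lower, nothing is read from these zeros in such short lists. An absence from the list does not show that a gene was equal in both genotypes.

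Calmodulin-like proteins, another group of calcium sensors, had 3 genes listed as higher and 0 as lower by the names in the deposited tables. CML44 (AT1G21550) gave 230, 193 and 246 raw counts in Col-0 and 363, 514 and 551 in mrg1 mrg2, in replicates 1 to 3. CML35 (AT2G41410) gave 2094, 2384 and 2242 in Col-0 and 3244, 3573 and 3779 in mrg1 mrg2. CML16 (AT3G25600) gave 477, 417 and 493 in Col-0 and 694, 918 and 1108 in mrg1 mrg2. In all 3 genes the mutant libraries lay above the Col-0 libraries, as for 99.2% of the higher genes. Replicate 3 was the highest mutant library, as in CIPK25. How many listed genes had this order was not counted. The authors' deposited table gives log2 fold changes of 1.09 for CML44, 0.66 for CML35 and 0.97 for CML16 (adjusted p = 7.52e-06, 4.59e-05 and 9.72e-05). The RefSeq table gives these 3 loci no symbol, and the 21 calmodulin and calmodulin-like genes it does name include 0 listed genes. No share of the group can therefore be set beside the 2.31% higher and 0.0913% lower of all genes tested.

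Among 24 known substrates and partners of CIPKs, 1 (4.17%) was higher and 0 were lower, beside 2.31% and 0.0913% of all genes tested, so nothing is read from the count. These 24 may not cover every such gene, and others may be among the higher genes. The 1 listed gene was ATL31 (AT5G27420), a substrate of CIPK14. ATL31 gave 969, 378 and 354 raw counts in Col-0 replicates 1 to 3 and 1948, 1147 and 1354 in mrg1 mrg2 replicates 1 to 3. Col-0 replicate 1 stood above the other Col-0 libraries, and the lowest mutant library was 1.12 times its normalized count. Raw counts did not overlap between the genotypes, as for 99.2% of the higher genes. Normalized counts of ATL31 averaged 564 ± 338 in the wild type and 1499 ± 495 in the mutant (SD, 3 libraries each). The authors' deposited table gives ATL31 a log2 fold change of 1.41 (adjusted p = 0.0168). ATL31 and CIPK14 did not share their highest libraries: replicate 1 was highest for ATL31 in both genotypes and replicate 2 for CIPK14.

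Of 34 calcium-dependent protein kinase genes, 1 (2.94%) was higher and 0 were lower, near the 2.31% and 0.0913% of all genes tested. This was CPK22 (AT4G04710), with 12, 15 and 10 raw counts in Col-0 and 39, 68 and 40 in mrg1 mrg2, in replicates 1 to 3. The authors' deposited table gives it a log2 fold change of 1.97 (adjusted p = 0.000462). Of its 1454 stretches of 50 bases, 0 occurred elsewhere in the genome and 14 (0.963%) matched another gene of this family with up to 2 mismatches.

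Of 66 calcium channel, pump and exchanger genes found by RefSeq symbol, 3 (4.55%) were higher and 0 were lower, beside 2.31% and 0.0913% of all genes tested. The symbols may not cover every such gene, and no difference from the background was tested. GLR1.1 (AT3G04110), a glutamate receptor-like channel, was the steadiest of the 3 in Col-0. It gave 470, 423 and 432 raw counts in Col-0 and 666, 814 and 665 in mrg1 mrg2 in replicates 1 to 3. ATCNGC14 (AT2G24610), a cyclic nucleotide-gated calcium channel known from roots, had 26, 4 and 2 raw counts in Col-0 and 137, 89 and 74 in mrg1 mrg2. CNGC18 (AT5G14870), a calcium channel of the pollen tube, had 15, 28 and 23 in Col-0 and 52, 59 and 49 in mrg1 mrg2. In mrg1 mrg2 the coefficient of variation was 4.85% for CNGC18, below the 13.7% that counting error gives, and 5.66% for GLR1.1. The authors' deposited table gives log2 fold changes of 0.69 for GLR1.1, 3.25 for ATCNGC14 and 1.27 for CNGC18 (adjusted p = 1.26e-06, 0.000779 and 0.0172). ATCNGC14 and CNGC18 therefore changed at low counts, as CIPK25 did. GLR1.1 had a level per kilobase in Col-0 of 157 ± 6.73, above the 117 ± 26.3 of CIPK17 (SD, n = 3 each).

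Labels were checked as far as the listed genes allow. MRG2 (AT1G02740) gave 437, 380 and 403 raw counts in Col-0 and 188, 111 and 96 in mrg1 mrg2, lower in every mutant library; MRG1 was not listed. None of 5 markers of green aerial tissue and 5 of roots was listed, so the tissue was not checked against them. Fitted size factors of the 6 libraries lay between 0.955 and 1.07, and raw counts gave log2 ratios of 0.78, 1.02 and 1.30 for CIPK14, CIPK17 and CIPK25.

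The genotypes did not overlap in any of the 3 kinases. Leaving out a library could therefore change the size of an increase but not its direction. The log2 ratio of mrg1 mrg2 to Col-0 ran from 0.66 to 0.96 for CIPK14, 0.81 to 1.21 for CIPK17 and 1.01 to 1.53 for CIPK25. For CIPK25 the lowest value was without mutant replicate 3 and the highest without mutant replicate 1. The ranges of neighbouring kinases overlap, but they share libraries and do not measure the spread between libraries. CIPK14 had the lowest ratio whichever library was left out. Within replicate 1 alone, CIPK25 had the smallest increase, at 1.60-fold against 1.68-fold for CIPK14 and 1.86-fold for CIPK17. The order of the 3 relative increases was not tested.

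**Figure D5:**
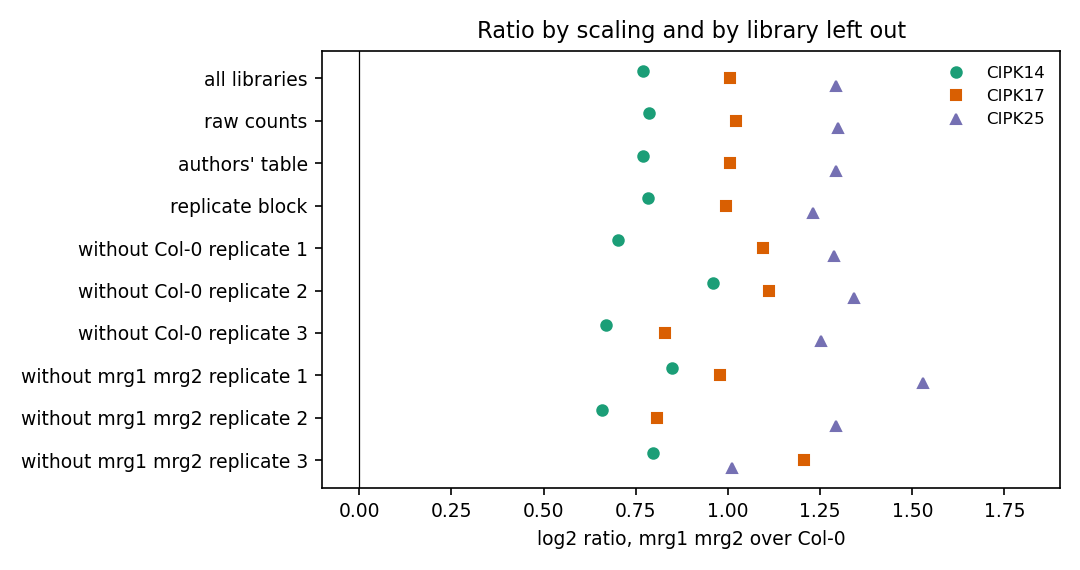
Log2 ratio of mrg1 mrg2 to Col-0 for CIPK14 (circles), CIPK17 (squares) and CIPK25 (triangles) with all libraries, from raw counts, in the authors' deposited table, as the mean within replicate numbers and without each library in turn. All points lie above 0, which the lack of overlap between the genotypes fixes in advance. CIPK17 lies above CIPK25 only without mutant replicate 3, at 1.21 against 1.01.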

How the data were processed

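RNA-seq counts of 3 Col-0 and 3 mrg1 mrg2 libraries were used. Libraries were stranded and made from total RNA without ribosomal RNA, per the labels' protocols. The submitters' processing notes name the build TAIR10 and the tool DESeq2. Which aligner and counter were used is not given in the sources used here. Raw read counts per gene were deposited, and here cover listed genes alone, so depth per library is known only from the labels. The p-value and adjusted p-value (FDR) are those of the authors' test, per the file headers. Log2 fold changes (mutant over wild type) were likewise computed by the authors, per the file headers.

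Size factors were fitted to turn the counts of 435 genes, with means of at least 50, into the authors' log2 fold changes. The residual SD was 0.000886, against 0.00936 with equal factors. The fit was also run on simulated data with known factors. Simulated fold changes came from the formula that the fit inverts, so this run checked the code alone. The number of genes tested was inferred from Benjamini-Hochberg ranks. No new test was made, since the genes were listed for this difference; 3 against 3 libraries cannot give an exact two-sided permutation p below 0.1. The kinases and gene lists were chosen with earlier results of these data known; CAX1 is in both the substrate and the channel list, and alpha carbonic anhydrases, which share the symbol ACA with calcium pumps, were removed from the latter. Besides the 3 kinases, the text names listed members of the gene lists, the 3 genes most like each kinase, adjacent genes and MRG2; 3 calmodulin-like genes were added by their deposited names after their values were seen.

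Deviations of same-numbered libraries from genotype means correlated across 435 genes (r = 0.40, 0.55 and 0.32; -0.42 to 0.02 for other pairs; genes are not independent replicates), so numbers were taken to pair libraries. Sequences and positions are from RefSeq TAIR10.1, whose strand equalled the deposited strand for 549 of 549 matched genes. Proteins were translated and aligned with Biopython 1.88 (BLOSUM62, global) in Python 3.11.15, taking the transcript with the longest coding sequence.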

Additional observations from a re-analysis of the deposited data

How the results depend on the processing

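Raw counts, the replicate block and leaving out each library kept each kinase higher in mrg1 mrg2, within the spread between replicates. The lack of overlap between the genotypes fixed this direction, so only the size of the ratios could change. The authors' deposited log2 fold changes match by construction, since the size factors were fitted to them. With the replicate block, the mean log2 ratio within replicate numbers was 0.78 for CIPK14, 0.99 for CIPK17 and 1.23 for CIPK25, and no direction changed. Leaving out each library in turn gave 0.66 to 0.96, 0.81 to 1.21 and 1.01 to 1.53. Size factors from medians over the listed genes gave -0.25, -0.0032 and 0.27; these factors centre the listed genes on no change although 531 of 552 are higher, so by construction they remove most of the difference. With an adjusted p of at most 0.01, 0 of the 24 CIPK substrates and partners searched remained listed, and with a mean of at least 50 counts 0 calcium-dependent kinases. Searching the deposited names too, an alternative chosen after seeing the data, raised the listed calmodulin-like genes from 0 to 3 and left the channels and pumps at 3. By Spearman's rho, 2 of the 9 genes most like a kinase stayed among the nearest, so these names depend on the measure. Counting error limits CIPK25, CPK22, ATCNGC14 and CNGC18, and genes that were not listed have no depth here.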

Other observations

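For 255 of the 531 higher genes (48%), ATL31 and ATCNGC14 among them, the highest normalized wild-type count was in replicate 1. This held for 0 of the 3 kinases, whose highest normalized Col-0 count was in replicate 2 in each case, at 1563 for CIPK14, 242 for CIPK17 and 40.2 for CIPK25. For CIPK17 this order rests on the size factors, since its raw count was 241 in replicate 1 and 235 in replicate 2. For CIPK25 the raw counts were 38, 39 and 36, closer together than counting error alone gives, so nothing is read from their order. How many higher genes were highest in Col-0 replicate 2 was not counted. In the mutant, CIPK14 and CIPK17 were also highest in replicate 2, at 2458 and 536 normalized counts, and CIPK25 was highest in replicate 3, at 125.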
